A study of Mus musculus with 12 samples.

Results

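The genes described here are Ciita and 9 genes of the major histocompatibility complex (MHC) class II pathway: Cd74, H2-Aa, H2-Ab1, H2-Eb1, H2-DMa, H2-DMb1, H2-DMb2, H2-Oa and H2-Ob. They were taken by name from the gene count table, which listed all 10 of them among 55367 mouse genes. RNA had been sequenced from whole blood of CB17-SCID mice bearing tumours grown from HT1376, a cell line of human bladder cancer. All mice, controls included, carried these xenografts and were dosed for 11 days with either vehicle or CPI0209, an inhibitor of the histone methyltransferases EZH2 and EZH1. CPI0209 was given by mouth once daily at 35 mpk (mg per kg), and blood was taken 1, 6 or 24 h after the final dose. There were 3 libraries in each of the 4 groups, and the labels do not state the hour at which vehicle mice were bled. The labels do not give the animals' age or sex, nor whether each library came from a separate mouse, so p-values measure the spread between these libraries.

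MHC class II molecules present peptides from engulfed proteins to CD4+ T cells and are made mainly by dendritic cells, B cells and some monocytes and macrophages. The H2-A molecule is a pair of an alpha chain (H2-Aa) and a beta chain (H2-Ab1), and H2-Eb1 is the beta chain of H2-E. The invariant chain, encoded by Cd74, guides newly made class II molecules to the endosome and blocks their groove until H2-DM (H2-DMa with H2-DMb1 or H2-DMb2) exchanges its remnant for peptide. H2-O (H2-Oa with H2-Ob) restrains H2-DM. Ciita does not bind DNA itself. It is the coactivator that switches these genes on, recruited by factors bound to the X and Y boxes of their promoters. The scid mutation blocks antigen receptor rearrangement, so these mice lack most mature T cells and B cells, and B cells are the main class II-bearing lymphocytes of normal blood. CB17 mice carry the H2d haplotype, whereas the mouse reference genome carries H2b, and how far that difference affected counting was not tested.

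The proximal promoters of 3 genes are printed as examples that hold matches to core letters of the X or Y box. Each line runs 5′ to 3′ from 110 to 11 bases before the annotated start (RefSeq, GRCm38.p6), and capitals mark matches to ATTGG (the core of the Y box, or CCAAT read on the other strand) and to AGCAAC (a core of the X box).
H2-Eb1: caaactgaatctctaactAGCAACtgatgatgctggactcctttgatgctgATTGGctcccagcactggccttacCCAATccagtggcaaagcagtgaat
H2-Ob: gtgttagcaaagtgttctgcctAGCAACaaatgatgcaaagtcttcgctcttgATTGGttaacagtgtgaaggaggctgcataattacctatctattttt
H2-Aa: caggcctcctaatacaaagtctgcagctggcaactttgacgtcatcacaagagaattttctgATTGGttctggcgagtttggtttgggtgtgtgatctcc
The windows lie at chr17:34305757-34305856 on the + strand, chr17:34238795-34238894 on the + strand and chr17:34287834-34287933 on the - strand. Promoters of 7 of the 10 genes were found in the RefSeq table, in 8 windows of 300 bases, and those of Ciita, Cd74 and H2-Ab1 were not used here. Searched on both strands, ATTGG was present for 7 of these 7 genes (7 of 8 windows), and in 37.4% of 32851 mouse promoters of the same length. The match of H2-DMa began 198 bases before the start, outside the stretch from 110 to 11 bases. The X box core was present for 3 of 7 genes (H2-Eb1, H2-Ob and H2-Oa, 3 of 8 windows), and in 14.8% of all these promoters. Its letters were chosen after the sequences had been seen, the 2 motifs share no bases here, and a match is only a match of letters. The H2-Aa line holds the Y box core and no match to those X box letters.

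Ciita, the regulator, lies on chromosome 16 (GRCm38, 10480059 to 10528418, + strand). Levels are given in CPM, counts scaled to library size with edgeR's factors. Ciita stood at 18.6, 10.1 and 7.51 CPM in vehicle replicates 1, 2 and 3, from 160, 94 and 59 counts. At 1 h it stood at 16.9, 5.82 and 11.6 CPM. At 6 h it stood at 4.93, 3.22 and 4.76 CPM, from 33, 26 and 37 counts. At 24 h it stood at 24.5, 14.0 and 11.1 CPM. The 3 libraries taken at 6 h were thus the lowest of the 12, below every other library, while vehicle, 1 h and 24 h overlapped. Among the 8 genes with enough counts to test, Ciita was the only 1 with this pattern, which 3.96% of the 13384 genes tested showed.

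The mean level of Ciita was 4.30 ± 0.942 CPM at 6 h, 11.4 ± 5.54 at 1 h, 12.1 ± 5.80 in vehicle and 16.5 ± 7.03 at 24 h (SD, n = 3). The means of vehicle and 1 h differed by less than their SDs, and so did those of vehicle and 24 h. Ciita was 3.85-fold higher at 24 h than at 6 h (log2 fold change 1.95, SE 0.44, 95% interval 1.01 to 2.89, edgeR quasi-likelihood test with Benjamini-Hochberg adjusted p = 0.043). Against vehicle, the level at 6 h was 2.81-fold lower (log2 fold change -1.49, SE 0.44, 95% interval -2.43 to -0.55, unadjusted p = 0.0042), which missed the threshold of 0.05 after adjustment (edgeR adjusted p = 0.068). The difference between 24 and 6 h lost its call with only those groups fitted (adjusted p = 0.19) and in 10 of 12 fits without 1 library (log2 fold change 1.57 to 2.15, adjusted p 0.0042 to 0.14), all but those without vehicle replicate 1 or 24 h replicate 3. The difference from vehicle at 6 h passed in 5 of 9 other settings, among them DESeq2 (adjusted p = 0.016).

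**Figure D1:**
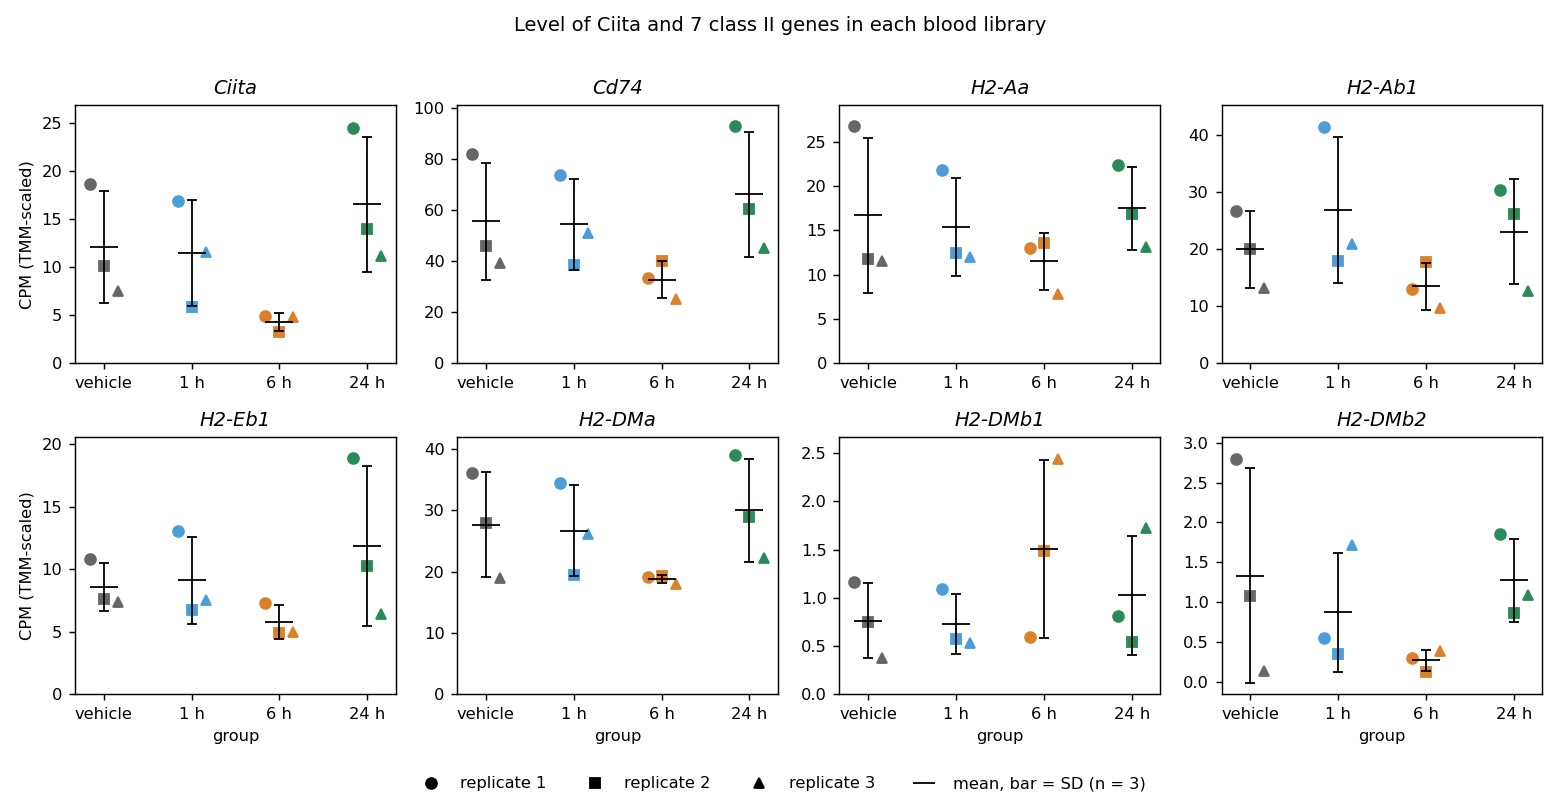
Level of the 8 tested genes in each library, in CPM, by group (vehicle, and 1, 6 and 24 h after the last dose of CPI0209). Symbols are libraries and bars are the mean and SD of 3 libraries, and the axes differ between panels. The 3 Ciita values at 6 h, from 3.22 to 4.93, lie below all others, while replicate 1 is the highest library of most genes in the other groups.

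Cd74, the invariant chain (chromosome 18, 60803848 to 60812652, + strand), was the most abundant of the 10. Per kilobase of annotated exon it reached 33.2 CPM in vehicle. On that scale it was followed by H2-DMa at 8.0, H2-Ab1 at 7.79, H2-Eb1 at 4.43, H2-Aa at 4.40 and Ciita at 1.27. H2-DMb2 (0.761), H2-DMb1 (0.455), H2-Oa (0.146) and H2-Ob (0.0569) had the lowest levels per kilobase. Per library, Cd74 stood at 81.9, 45.9 and 39.2 CPM in vehicle and at 73.8, 38.6 and 50.9 CPM in the 1 h group. At 6 h it stood at 33.2, 39.9 and 25.2 CPM, and at 24 h at 92.9, 60.5 and 45.0 CPM. The highest 6 h library lay just above the lowest vehicle library, and all 3 libraries at 24 h lay above all 3 at 6 h. Its log2 fold change was -0.77 (SE 0.33, edgeR adjusted p = 0.21) at 6 h against vehicle and 1.02 (SE 0.33, adjusted p = 0.098) at 24 h against 6 h.

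The classical class II chains were measured at a similar, lower level. H2-Aa, the H2-A alpha chain (chromosome 17, 34282744 to 34287823, - strand), averaged 16.7 ± 8.78 CPM in vehicle, 15.4 ± 5.54 at 1 h, 11.5 ± 3.17 at 6 h and 17.5 ± 4.64 at 24 h. H2-Ab1, its beta chain partner (34257689 to 34269419, + strand), averaged 20.0 ± 6.75, 26.8 ± 12.8, 13.4 ± 4.05 and 23 ± 9.25 CPM. H2-Eb1, the H2-E beta chain (34305867 to 34316674, + strand), averaged 8.61 ± 1.91, 9.11 ± 3.45, 5.76 ± 1.35 and 11.9 ± 6.37 CPM. For all 3 chains the 6 h mean was the lowest of the 4 groups. Single libraries overlapped in most comparisons: H2-Aa stood at 13, 13.6 and 7.84 CPM at 6 h against 26.8, 11.8 and 11.5 CPM in vehicle. H2-Eb1 did not overlap, at 7.32, 4.95 and 5.01 CPM at 6 h against 10.8, 7.63 and 7.38 CPM in vehicle. The log2 fold changes at 6 h against vehicle were -0.54 for H2-Aa, -0.57 for H2-Ab1 and -0.58 for H2-Eb1 (SE 0.36, 0.38 and 0.38), with edgeR adjusted p of 0.44, 0.44 and 0.43. H2-Ab1 had the largest difference of the 3 between 6 and 1 h (-0.99, SE 0.38, adjusted p = 0.17), where its libraries did not overlap.

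H2-Ea, the alpha chain that pairs with H2-Eb1, is not one of the 10 genes and is annotated as a polymorphic pseudogene in the reference mouse (chromosome 17, 34341959 to 34344645, - strand). It was nonetheless counted at 17.6 ± 5.39 CPM in vehicle, 18.7 ± 9.39 at 1 h, 10.7 ± 1.60 at 6 h and 20.0 ± 8.83 at 24 h. Its mean was likewise lowest at 6 h (log2 fold change -0.72 against vehicle, edgeR adjusted p = 0.31). At 17.0 CPM per kilobase in vehicle, H2-Ea lay between Cd74 and H2-DMa.

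Of the H2-DM chains, H2-DMa (chromosome 17, 34119541 to 34139101, + strand) had the narrowest spread at 6 h. It stood at 36.0, 27.9 and 19.0 CPM in vehicle, at 34.4, 19.5 and 26.1 at 1 h, then at 19.1, 19.2 and 18.0 at 6 h, then at 38.9, 28.8 and 22.2 at 24 h. The highest 6 h library was 1.07 times the lowest. All 3 libraries at 6 h lay below all 3 at 1 h and at 24 h, and the lowest vehicle library lay within their range. The log2 fold change was -0.56 at 6 h against vehicle (SE 0.27, edgeR adjusted p = 0.27) and 0.68 at 24 h against 6 h (SE 0.27, adjusted p = 0.16). H2-DMa shares 360 exon bases with Brd2 on the opposite strand, a gene with 10482 counts over all libraries, and with the strand of counting unknown the value of H2-DMa is uncertain. Ciita likewise shares 329 exon bases with Dexi, which had 186 counts over all libraries.

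The genes for the H2-DM beta chain had few counts. H2-DMb1 (34153072 to 34160230, + strand) had 10, 7 and 3 counts in vehicle, 8, 5 and 5 at 1 h, then 4, 12 and 19 at 6 h, then 7, 5 and 11 at 24 h. It was the only tested gene of the 10 whose 6 h mean was not the lowest, with a log2 fold change of 0.97 against vehicle (SE 0.67, edgeR adjusted p = 0.46). H2-DMb2 (34143307 to 34151555, + strand) had 24, 10 and 1 counts in vehicle, 4, 3 and 16 at 1 h, then 2, 1 and 3 at 6 h, then 16, 8 and 7 at 24 h. Its log2 fold change was -2.26 at 6 h against vehicle (SE 0.97, adjusted p = 0.21) and 2.19 at 24 h against 6 h (SE 0.97, adjusted p = 0.20). The 2 transcripts were 96.0% identical over 1045 aligned bases, and 26.6% of the 50-base windows of H2-DMb1 also occurred in H2-DMb2. How reads were divided between them is therefore uncertain.

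The H2-O genes were barely detected and were not tested. H2-Oa (34092340 to 34095234, + strand) had 5 counts over the 3 vehicle libraries, 5 at 1 h, 1 at 6 h and 4 at 24 h. H2-Ob (34238903 to 34254414, + strand) had 8, 4, 4 and 0 counts. The 0 at 24 h allows up to 0.124 CPM over the group (3 counts), and the vehicle libraries of H2-Ob stood at 0.232, 0.43 and 0.254 CPM, from 2, 4 and 2 counts.

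Taken by comparison, 0 of the 8 tested genes passed at 1 h against vehicle by edgeR, where 0.194% of all genes tested were called. None had an unadjusted p under 0.05, and DESeq2 and limma-voom also called 0. The median log2 fold change of the 8 was -0.07, against -0.02 over all genes, and that of Ciita was -0.08 (95% interval -0.96 to 0.80). At 24 h against vehicle, where 0.105% of all genes were called, edgeR, DESeq2 and limma-voom called 0 of the 8, again with no unadjusted p under 0.05. The median was 0.23, against 0.01 over all genes. The largest values belonged to H2-Eb1 (0.47, SE 0.37, adjusted p = 0.79) and Ciita (0.45, SE 0.41, adjusted p = 0.83). The mean of the 3 treated times against vehicle called 0 of 8 with each of the 3 tools, with no unadjusted p under 0.05, where edgeR called 0.934% of all genes. For 24 h against 1 h these numbers were 0 of 8 with each tool, no unadjusted p under 0.05 and 0.0224% of all genes.

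At 6 h against vehicle edgeR called 4.84% of all genes (0.785% lower) and 0 of the 8. The unadjusted p was under 0.05 for 3 genes, Ciita, Cd74 and H2-DMb2, DESeq2 called 1 (Ciita) and limma-voom 0. The fold change was below 0 for 7 of the 8, as for 53.7% of all genes, with a median of -0.58 against -0.04 over all genes. Ciita and H2-Eb1 had all 3 treated libraries below all 3 vehicle libraries, as did 13.5% of all genes tested. The 6 h mean was the lowest of the 4 groups for 7 of the 8 genes, and for 35.7% of all genes.

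Between treated times, 0 of the 8 were called by edgeR at 6 h against 1 h, where 0.493% of all genes were. The unadjusted p was under 0.05 for 3 of the 8, and DESeq2 called 1 and limma-voom 0. Ciita, H2-Ab1 and H2-DMa had every 6 h library below every 1 h library, as did 13.8% of all genes. At 24 h against 6 h, 1 of the 8 (Ciita) was called, higher, where 1.76% of all genes were called and 0.508% were called higher. Ciita, Cd74, H2-DMa and H2-DMb2 had every 24 h library above every 6 h library, as did 10.5% of all genes. The median of the 8 was 0.90, against 0.04 over all genes. The unadjusted p was under 0.05 for 5 of the 8. These comparisons share the 6 h libraries with those against vehicle and 1 h.

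**Figure D2:**
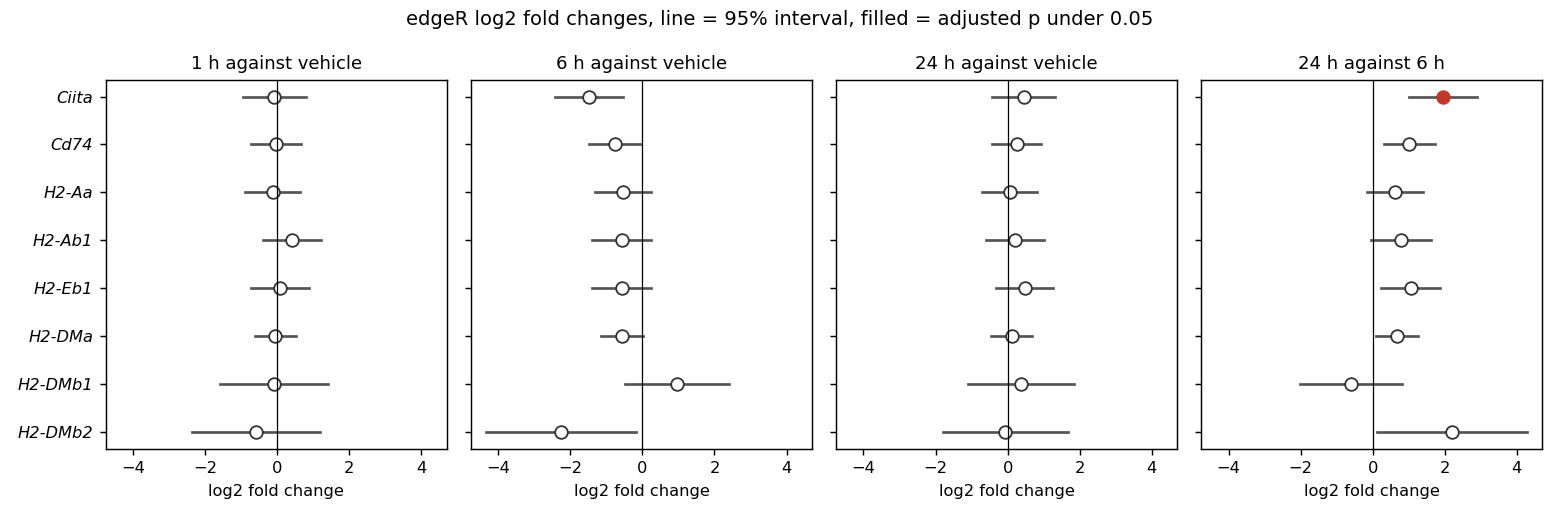
Log2 fold change of the 8 tested genes in the 3 comparisons with vehicle and at 24 h against 6 h, with 95% intervals from edgeR. Values at 1 h and 24 h against vehicle lie around 0, those at 6 h lie below 0 for 7 of 8 genes, and only Ciita at 24 h against 6 h passed the threshold.

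The 6 genes with the most counts (Ciita, Cd74, H2-Aa, H2-Ab1, H2-Eb1 and H2-DMa) varied together within groups. In vehicle, at 1 h and at 24 h, replicate 1 was the highest library for 6 of 6 genes. At 6 h replicate 2 was the highest for 4 and replicate 1 for 2. The highest Ciita library was 2.48 times the lowest in vehicle, 2.90 times at 1 h, 2.20 times at 24 h and 1.53 times at 6 h. Summed over the 10 genes, levels were 205, 126 and 99.0 CPM in vehicle, 203, 102 and 132 at 1 h, then 91.5, 100 and 73.8 at 6 h, then 231, 158 and 113 at 24 h. The range within vehicle was thus wider than the distance from its lowest library to the lowest at 6 h. Over the 12 libraries the 15 pairs of these 6 genes had correlations of log2 CPM from 0.73 to 0.95, which the shared library scaling enters.

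Ratios between genes of 1 library do not depend on that scaling. Per 100 Cd74 counts, Ciita had 22.7, 22.0 and 19.2 counts in vehicle, 22.9, 15.1 and 22.8 at 1 h, then 14.9, 8.07 and 18.9 at 6 h, then 26.3, 23.1 and 24.7 at 24 h. The group means were 21.3 ± 1.88, 20.3 ± 4.48, 13.9 ± 5.46 and 24.7 ± 1.62. All 3 ratios at 6 h lay below all 3 in vehicle, by a narrow margin for replicate 3, and all 3 at 24 h lay above all 3 at 6 h. The lowest, 8.07, rested on 26 Ciita counts (95% exact binomial interval 5.19 to 12.1). With 3 libraries a side, the smallest two-sided p of an exact permutation test is 0.1, so these ratios were not tested. H2-Aa, H2-Ab1 and H2-Eb1 together had 82.1 ± 3.69 counts per 100 Cd74 counts in vehicle, 93.1 ± 12.5 at 1 h, 93.6 ± 6.01 at 6 h and 78.9 ± 8.39 at 24 h. The 6 h mean was thus the lowest of the 4 groups for Ciita, although 1 h replicate 2 (15.1) lay below 6 h replicate 3 (18.9). For the chains the means at 6 and 1 h were alike, and both were above those of vehicle and 24 h.

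**Figure D3:**
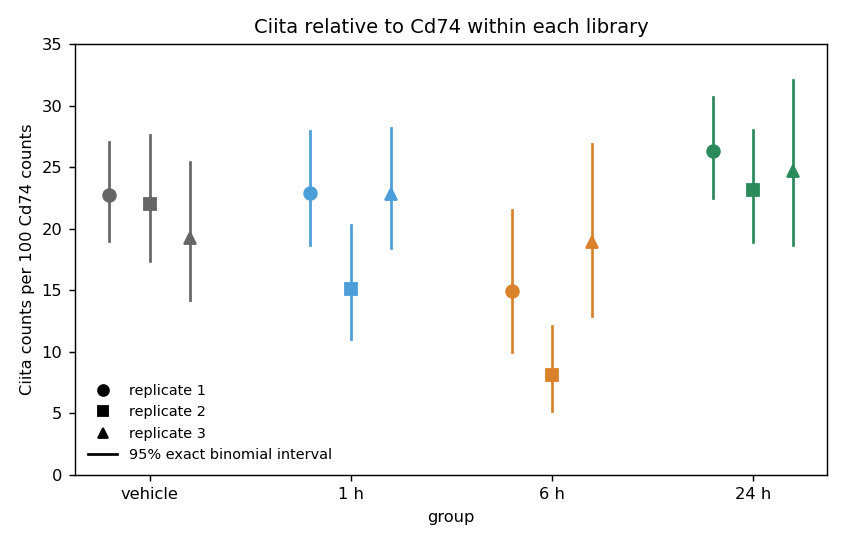
Counts of Ciita per 100 counts of Cd74 in each library, by group. Symbols are libraries and lines are 95% exact binomial intervals, which cover counting error only. The 6 h libraries lie at 14.9, 8.07 and 18.9, and the intervals of replicates 1 and 3 overlap those of vehicle.

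In bulk blood, fewer cells that express a gene and less RNA per cell cannot be told apart. Markers of the cell types that make class II molecules are given for that reason. B cells were nearly absent: 2 of 12 B cell markers (Ighm and Cd22) had enough counts to test and were not called, and Ms4a1 had 0 counts in all 12 libraries. The summed B cell markers ran from 29.4 to 52.9 CPM in vehicle and from 37.8 to 45.2 at 6 h. Of 11 tested classical dendritic cell markers, edgeR called 1 at 6 h against vehicle, Clec10a, a lectin of dendritic cells and macrophages, which fell from 4.00 ± 2.04 to 0.350 ± 0.127 CPM (log2 fold change -3.44, SE 0.59, adjusted p = 0.0037). Clec9a, Flt3, Xcr1 and Zbtb46, which mark dendritic cells more narrowly, were named after their values had been seen. They were at 8.74, 3.12, 3.79 and 2.41 CPM in vehicle and 6.12, 2.51, 5.53 and 3.53 at 6 h. The first pair was lower and the other higher, and edgeR called none of them. Of the other tested members, likewise named later, Cd209a (-1.66), Batf3 (-0.84) and Itgax (-0.13) were lower at 6 h and Tbc1d4 (0.65) was higher. EdgeR called none of these either (adjusted p = 0.37, 0.55, 0.87 and 0.33). The median log2 fold change of the 11 was -0.29. Ccr7 had too few counts to test, 13 in vehicle and 2 at 6 h. The whole list summed to 1410 to 1670 CPM in vehicle, 1490 to 1830 at 1 h, 2750 to 3270 at 6 h and 957 to 2160 at 24 h. Most of that was Cd24a, which red cell precursors also carry (1190 ± 174 CPM in vehicle, 2780 ± 268 at 6 h). Without Cd24a the sums ran from 294 to 374 CPM in vehicle, 298 to 337 at 1 h, 252 to 281 at 6 h and 295 to 539 at 24 h, so that all 3 libraries at 6 h lay below the other 9. Most of this remainder was Sirpa, which other myeloid cells also carry, at 264 ± 25.3 CPM in vehicle and 215 ± 5.02 at 6 h (log2 fold change -0.29, edgeR adjusted p = 0.45).

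Of 11 classical monocyte markers, edgeR called 1 lower at 6 h against vehicle, Ccr2 (-0.63, adjusted p = 0.048). EdgeR called 0.785% of all genes lower there. Ccr2 was as low at 1 h against vehicle (-0.65, edgeR adjusted p = 0.20), and its log2 fold change at 6 h against 1 h was 0.01. The median of the 11 at 1 h was -0.08. At 6 h the unadjusted p of edgeR was under 0.05 for 5 of the 11, and the median log2 fold change of the list was -0.48. DESeq2 and limma-voom each called 1, lower. The sums ran from 2530 to 3400 CPM in vehicle, 2000 to 3280 at 1 h, 1740 to 2190 at 6 h and 2190 to 3240 at 24 h. All 3 sums at 6 h thus lay below all 3 in vehicle. A large and variable part of these sums was Fn1, at 644 ± 602 CPM in vehicle and 211 ± 151 at 6 h. None of 10 tested nonclassical monocyte or 6 plasmacytoid dendritic cell markers was called at 6 h against vehicle by edgeR, DESeq2 or limma-voom, with no unadjusted p under 0.05, and their sums overlapped, at 655 to 865 and 551 to 768 CPM for the first and 131 to 173 and 131 to 168 CPM for the second. Reticulocyte markers were high at 6 h, with sums of 75200 to 87100 CPM against 38900 to 44700 in vehicle. EdgeR called 11 of 14 higher against vehicle, where it called 4.06% of all genes higher. At 24 h against 6 h it called 7 of the 14 lower, where it called 1.25% of all genes lower. At 24 h the reticulocyte sums were 22400, 31400 and 64600 CPM, and replicate 3, the highest of these, had the lowest Ciita and Cd74 of its group. The same held for vehicle replicate 3 (44700 CPM) and 1 h replicate 2 (52500 CPM). It did not hold at 6 h, where replicate 1 had the highest reticulocyte sum (87100 CPM) and also the highest Ciita (4.93 CPM). The scaling factors of edgeR differed in the same libraries, from 0.766 to 0.812 at 6 h against 1.03 to 1.12 in vehicle. The part of these cell populations and of the scaling in the levels of the class II genes was not tested. With no scaling beyond library totals, the median of all genes moved to -0.50 at 6 h against vehicle, and that of the 8 class II genes to -1.04.

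**Figure D4:**
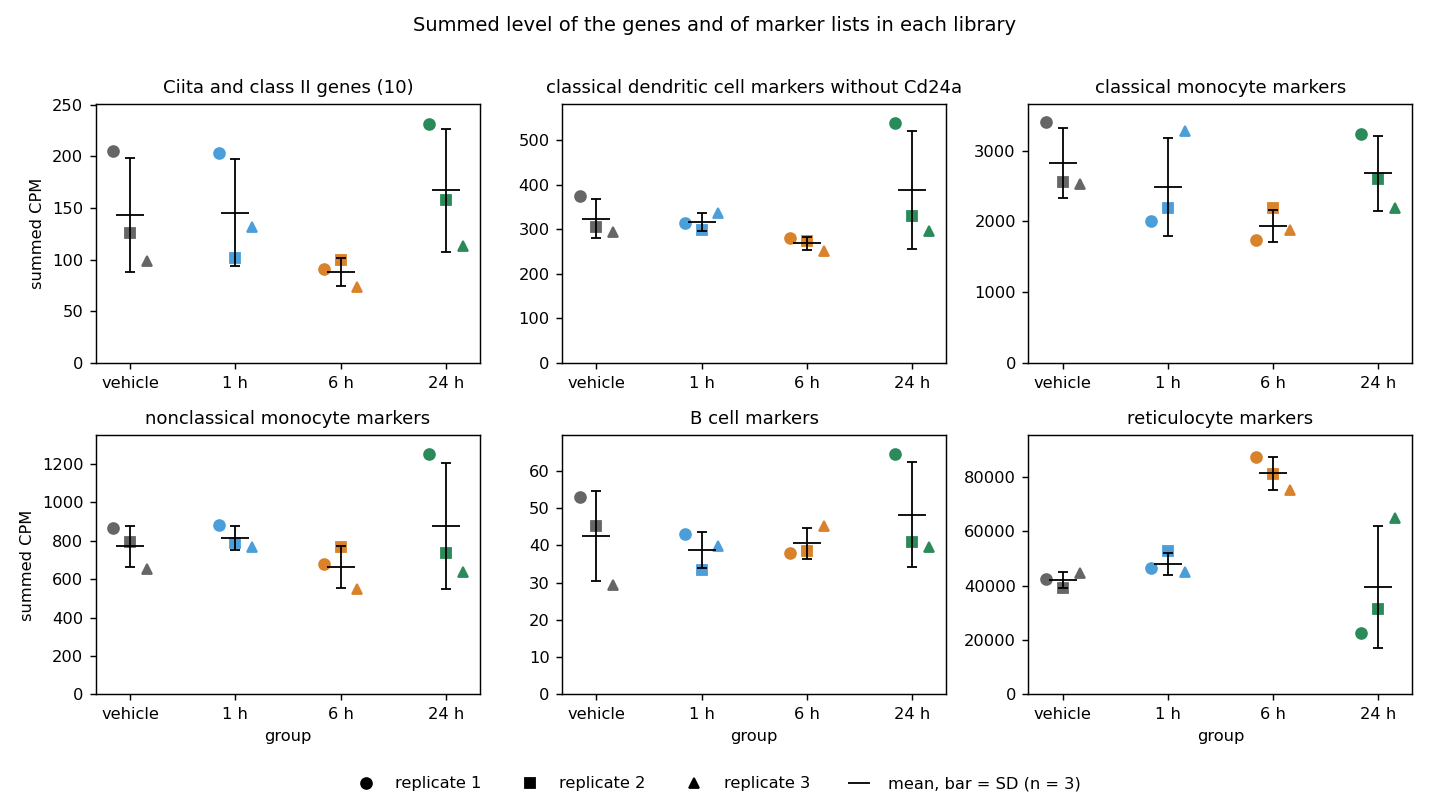
Summed level of the 10 genes and of the marker lists in each library, in CPM, by group. Symbols are libraries and bars the mean and SD of 3 libraries. Classical dendritic cell markers without Cd24a, mostly Sirpa, are lowest at 6 h (252 to 281), while with Cd24a their sum is highest there (2750 to 3270, not drawn), as is that of reticulocyte markers, and B cell markers overlap in all groups.

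Other genes of the pathway were read from lists. Of 12 tested genes that load class II molecules or carry them through the cell, edgeR called 2 at 6 h against vehicle, both higher, with 7 at an unadjusted p under 0.05, where it called 4.06% of all genes higher. DESeq2 called 2 higher and 1 lower, limma-voom 2 higher, and the median log2 fold change was -0.27. Those that rose were Lgmn, an endosomal protease that cuts antigens (21.7 ± 7.19 to 60.7 ± 11.1 CPM, log2 fold change 1.48, SE 0.22, edgeR adjusted p = 0.0018), and Marchf8, a ubiquitin ligase whose known substrates include class II molecules (149 ± 41.0 to 519 ± 125 CPM, 1.80, SE 0.36, adjusted p = 0.011). Reticulocyte sums were also higher at 6 h than in vehicle, and the part of those cells in the rises of Lgmn and Marchf8 was not tested. Ctss, the protease that trims the invariant chain, stood at -0.48 (adjusted p = 0.098). At 24 h against 6 h, Unc93b1, a chaperone of endosomal Toll-like receptors, rose from 62.6 ± 4.85 to 109 ± 24.2 CPM (0.80, SE 0.18, adjusted p = 0.041), the only call by edgeR. Lgmn and Marchf8 then stood at -0.82 (adjusted p = 0.06) and -1.47 (adjusted p = 0.051). In that comparison DESeq2 called 2 of the 12 higher and 2 lower, and limma-voom 1 higher and 2 lower.

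Factors that act with or upstream of Ciita were read the same way. The promoter complex that recruits it, and its coactivators, gave 0 of 12 by edgeR at 6 h against vehicle, with no unadjusted p under 0.05, and 0 by DESeq2 and limma-voom. The median of this list was -0.13, and its smallest p belonged to the acetyltransferases Kat2b (log2 fold change 0.43, adjusted p = 0.26) and Crebbp (0.37, adjusted p = 0.31). At 24 h against 6 h edgeR called 0 of the 12, with 3 at an unadjusted p under 0.05, while DESeq2 and limma-voom each called 1, lower. Of 13 tested regulators of Ciita itself, edgeR called 0 with 4 at an unadjusted p under 0.05, DESeq2 called 1, higher, and limma-voom 0. Irf1, which drives Ciita after interferon gamma, stood at -0.54 (adjusted p = 0.14) and Irf4 at -0.83 (adjusted p = 0.17). Of 5 tested co-stimulatory genes edgeR called 0, with 1 at an unadjusted p under 0.05, and DESeq2 and limma-voom called 0. The lowest of them was Icosl (-0.74, adjusted p = 0.14).

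The class I pathway, which presents peptides from inside the cell and is driven by Nlrc5, a relative of Ciita, was measured in 19 genes. At 6 h against vehicle edgeR called 0, with no unadjusted p under 0.05, DESeq2 and limma-voom called 0, and the median log2 fold change was -0.20. Nlrc5 stood at -0.63 at 6 h against vehicle (adjusted p = 0.28) and 1.07 at 24 h against 6 h (adjusted p = 0.076), the same signs as Ciita, with neither past the threshold by edgeR. At 24 h against 6 h edgeR called 0 of the 19, with 2 at an unadjusted p under 0.05, DESeq2 called 1, higher, and limma-voom 0. Of 6 tested subunits of PRC2, the complex that CPI0209 targets, edgeR called 0 at 6 h against vehicle, with 1 at an unadjusted p under 0.05, DESeq2 called 1 and limma-voom 0. Ezh2 averaged 280 ± 22.6 CPM in vehicle, 213 ± 16.8 at 1 h, 408 ± 33.4 at 6 h and 219 ± 156 at 24 h, and Ezh1 53.7 ± 7.32, 51.4 ± 12.1, 61.9 ± 3.00 and 60.1 ± 11.6.

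The genes most alike in pattern were found among 11280 genes by correlation of log2 CPM over the 12 libraries, given as a description. For the mean of the 8 tested genes they were Lrp1 (r = 0.92), Tnfaip1 (0.91), Acaa1a (0.91), Elmo2, Arhgap17 and Dock10 (0.90 each) and Kmo and Samm50 (0.89 each). For Ciita alone they were Arhgap17 (0.92), Mx2 and Dido1 (0.91 each) and Dock10 and Clec1a (0.90 each). With group means subtracted, the genes closest to the class II mean were Arhgap35 (0.95), Elac2 and Crip1 (0.94 each), Tomm40l and Pcyox1 (0.93 each), Nedd4l (0.92), and Ighm and Bcl11a (0.91 each). Those closest to Ciita were then Tanc2 (0.97), Ube3c (0.96), and Plekhg1, Setd1a and Zdhhc7 (0.92 each). Of all these genes, Crip1 (-0.85, adjusted p = 0.018) and Nedd4l (-1.11, adjusted p = 0.04) were called lower at 6 h against vehicle by edgeR.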

How the data were processed

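RNA was extracted with a PAXgene kit and sequenced in pairs after ribosomal RNA depletion, per the labels' protocols. The authors deposited whole-number counts per gene, not scaled to library size. RSEM and the human build hg38 are named in the submitters' processing notes although the identifiers are mouse. The aligner, annotation, strand and any rounding of estimates: not given in the sources used here. Library totals ran from 6496573 to 9978215 counts. The binomial intervals of ratios and the limit for a group without any counts cover counting error alone. The intervals of log2 fold changes came from edgeR's fit and include the spread between libraries.

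The main test was edgeR's quasi-likelihood test, version 4.0.16 in R 4.3.3 (filterByExpr, 13384 genes, TMM scaling, 4 group means over 12 libraries, 7 comparisons), with Benjamini-Hochberg adjustment over all genes and a threshold of 0.05. DESeq2 1.42.0 and limma 3.58.1 (voom) were alternatives, with 2 other scalings, TMM factors set without erythroid genes, other filters, a replicate block, only the groups compared, and each library left out. Positions and lengths came from GENCODE M21 (GRCm38), which held 55035 of 55367 identifiers. Replicate numbers were not found to pair libraries. Tested on simulated data at 6 h against vehicle, the fit found 23% of genes changed by 1 log2 unit and 66% of those changed by 2, with 4 false calls among 13034 genes. The simulation gave each gene the same spread in all groups. In the real data the 24 h libraries differed more from each other than those of other groups, so these rates may not carry over.

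The genes and the 18 lists (class II loading, transcription machinery, Ciita regulators, co-stimulation, region genes, class I, PRC2, globins and 10 cell types) were chosen with earlier results of these data known. Up to 4 genes with the smallest p per list and those past the threshold could be named, with the 8 genes most like the class II mean and 5 most like Ciita, above a mean log2 CPM of 1 (prior count 2). Of lists not given in the report, edgeR called 0 of 2 region genes (H2-Ea and Brd2), 0 of 4 T cell and 0 of 9 NK cell markers at 6 h against vehicle, with 1, 0 and 1 at an unadjusted p under 0.05; DESeq2 and limma-voom each called 0, 0 and 1. EdgeR called 1 of 12 neutrophil, 1 of 10 platelet and 2 of 4 globin genes there, all higher, where it called 4.06% of all genes higher.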

Additional observations from a re-analysis of the deposited data

Results flagged for a closer look

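Ciita differed between the groups bled 24 and 6 h after the last dose, both compared with the same vehicle libraries of unstated bleeding hour. The log2 fold change of 24 h against 6 h was 1.95 (edgeR adjusted p = 0.043). All 3 libraries at 24 h, from 11.1 to 24.5 CPM, lay above all 3 at 6 h, from 3.22 to 4.93 CPM. Against vehicle it was -1.49 at 6 h and 0.45 at 24 h, and neither passed the threshold with edgeR (adjusted p = 0.068 and 0.83). The first passed with DESeq2 (adjusted p = 0.016) and in 5 of 9 other settings in all.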

How the results depend on the processing

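The number of the 8 genes called at 6 h against vehicle was 0 in the reported fit, 1 with library totals alone, a replicate block, DESeq2 or only the groups compared, and 2 with no filter. At 6 h against 1 h it was 0, then 1 with library totals, DESeq2 or only the groups compared and 3 with no filter. At 24 h against 6 h it was 1, then 5 with library totals, 4 with no filter, 2 with the replicate block or DESeq2, and 0 with only the groups compared. Leaving out 1 library gave 0 to 1, 0 to 1 and 0 to 3 calls, the highest of the last (Ciita, Cd74 and H2-Eb1) without 24 h replicate 3. In the other 4 comparisons no setting called any of the 8. With the block, Ciita passed at 6 h against vehicle (adjusted p = 0.022) and Cd74 at 24 h against 6 h (adjusted p = 0.047). Same-numbered libraries correlated at -0.11 to 0.17 (18 pairs, 2 over 0.1), so the numbers were not taken to pair them.

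Ciita at 6 h against vehicle passed without 24 h replicate 1 (adjusted p = 0.032) or 24 h replicate 3 (adjusted p = 0.039), with a log2 fold change of -1.75 to -1.06 over all fits without 1 library. The cause was not tested. Library totals alone moved the calls among all genes from 543 higher and 105 lower to 344 and 1488 at 6 h against vehicle, from 18 and 48 to 17 and 657 at 6 h against 1 h, and from 68 and 167 to 2692 and 259 at 24 h against 6 h. Over all settings those counts of calls ran from 239 to 1832, 4 to 1720 and 0 to 2951, against 648, 66 and 235 as reported.

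Of 817 recomputed gene values, 748 kept direction and side of the threshold. Signs turned for Cd74 at 1 h (0.01 with the block) and H2-DMb2 at 24 h (0.52 with limma-voom), and, without 1 library, for small values. At 1 h against vehicle these ran from -0.45 to 0.39 for Ciita, -0.29 to 0.37 for Cd74, -0.44 to 0.41 for H2-Aa, -0.02 to 0.70 for H2-Ab1, -0.25 to 0.29 for H2-Eb1, -0.26 to 0.20 for H2-DMa, -0.44 to 0.35 for H2-DMb1 and -1.56 to 0.53 for H2-DMb2. At 24 h they ran from -0.07 to 0.64 for Cd74, -0.15 to 0.59 for H2-Aa, -0.03 to 0.49 for H2-Ab1, -0.03 to 0.75 for H2-Eb1, -0.11 to 0.36 for H2-DMa, -0.18 to 0.79 for H2-DMb1 and -0.58 to 1.04 for H2-DMb2.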
